A study of Mus musculus with 77 samples.

Results

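The 32 genes described here are genes of myelin and of the mature oligodendrocyte, the glial cell that wraps axons in the central nervous system. They are a list of names with no threshold on a measured value, chosen with earlier results of these data known. All 32 were found among the 52636 genes of each count table. RNA-seq libraries had been made from mouse cerebral white matter in a study of vascular dementia with focal ischemia. The labels give each of the 77 libraries a cell type and a condition. The groups were EC stroke (7 libraries) and EC control (5), pericyte stroke (8) and control (7), OPC stroke (6) and control (6), astrocyte stroke (6) and control (6), and microglia P4 stroke (9), P2 stroke (9) and P2 control (8). The labels do not spell out EC, OPC, P2 or P4. No source used here gives the strain, the age, the stroke model or the way the cells were isolated. Nothing in the labels says that libraries of a group came from separate animals, so the p-values below measure the spread between these libraries, which may be technical.

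Myelin is a stack of glial membrane in which basic proteins and membrane-spanning proteins hold the layers together, while adhesion proteins face the axon or the outside. Its lipids are rich in galactosylceramide and sulfatide, made by a short chain of enzymes, and tight and gap junctions seal and connect its layers. Oligodendrocyte precursors express few of these genes and switch them on as they mature, under the transcription factors SOX10 and MYRF. In white matter these transcripts are abundant, and Mbp messenger RNA is carried out into the myelin sheath itself.

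Reads were deposited as unnormalized counts per gene, with 5530125 to 11770194 reads per microglia library and 43367636 to 142944063 in every other library. Levels are given as CPM (counts per 1000000 counts of the library) on library totals scaled by TMM within each table, so that levels in different cell types were scaled separately. Each labelled cell type had the highest sum of its own 10 marker genes: the OPC list came to 5059 to 6171 CPM in OPC stroke and 4137 to 5773 CPM in OPC control libraries, and the pericyte list to 8220.5 to 19522 CPM in pericyte stroke and 4330.4 to 18586 CPM in pericyte control libraries. The EC libraries held less endothelial than neuronal marker RNA, with sums of 2857 to 4732 CPM and 4696 to 6255 CPM in EC stroke and of 2009 to 3402 CPM and 6924 to 9595 CPM in EC control libraries. Within OPC libraries the myelin genes described here had a higher sum than the OPC list. They came to 43625 to 61496 CPM in OPC stroke and 74867 to 85798 CPM in OPC control libraries. Their pericyte sums, 10695 to 19960.5 CPM in stroke and 17361 to 33230.4 CPM in control libraries, overlapped those of the pericyte list. The share of this RNA that came from mature oligodendrocytes was not tested. In bulk libraries of this kind, fewer oligodendrocytes and less RNA per oligodendrocyte cannot be told apart.

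The genes that carry the results lie on several chromosomes of GRCm38 in the GENCODE M21 annotation: Mal (ENSMUSG00000027375) at chr2:127633226-127656695, Mog (ENSMUSG00000076439) at chr17:37010743-37023398, Opalin (ENSMUSG00000050121) at chr19:41061710-41077113, Klk6 (ENSMUSG00000050063) at chr7:43824499-43832030 and Apod (ENSMUSG00000022548) at chr16:31296192-31314808. Sequences upstream of 5 of the genes are shown, and all 5 hold a match to ACAAAG, described below. Mobp, Cnp and Opalin fell in OPC and pericyte stroke libraries, and Klk6 and Apod did not follow them in every cell type. The sequences come from RefSeq (mouse GRCm38.p6), which gave a window for 26 of the 32 genes. Each is printed 5′ to 3′ on the strand of the gene, from 250 bases before the RefSeq start. It ends at that start, or at the start of the gene in GENCODE where that lies earlier. Capitals mark matches on either strand to ACAAAG, a core that SOX proteins bind, and to CTGGCAC, a form of the MYRF site. The windows are chr9:120149492-120149706 (+ strand), chr11:100574689-100574903 (+), chr19:41077114-41077363 (-), chr7:43824294-43824498 (+) and chr16:31314809-31315058 (-).
Mobp: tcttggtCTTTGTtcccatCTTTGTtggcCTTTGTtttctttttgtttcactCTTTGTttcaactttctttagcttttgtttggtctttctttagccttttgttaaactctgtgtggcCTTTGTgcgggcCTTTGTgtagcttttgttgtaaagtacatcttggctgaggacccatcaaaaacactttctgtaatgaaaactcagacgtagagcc
Cnp: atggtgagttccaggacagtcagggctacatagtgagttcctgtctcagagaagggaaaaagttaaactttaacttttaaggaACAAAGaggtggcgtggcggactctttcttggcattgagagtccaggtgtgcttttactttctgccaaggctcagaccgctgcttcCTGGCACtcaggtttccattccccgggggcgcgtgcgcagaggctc
Opalin: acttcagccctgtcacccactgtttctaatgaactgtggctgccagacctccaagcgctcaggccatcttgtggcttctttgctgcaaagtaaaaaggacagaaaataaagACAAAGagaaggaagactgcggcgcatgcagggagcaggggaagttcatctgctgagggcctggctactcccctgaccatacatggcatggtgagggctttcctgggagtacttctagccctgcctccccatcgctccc
Klk6: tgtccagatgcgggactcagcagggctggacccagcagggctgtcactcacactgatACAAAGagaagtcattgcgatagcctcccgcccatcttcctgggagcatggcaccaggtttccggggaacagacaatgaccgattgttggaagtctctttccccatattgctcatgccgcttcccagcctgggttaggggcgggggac
Apod: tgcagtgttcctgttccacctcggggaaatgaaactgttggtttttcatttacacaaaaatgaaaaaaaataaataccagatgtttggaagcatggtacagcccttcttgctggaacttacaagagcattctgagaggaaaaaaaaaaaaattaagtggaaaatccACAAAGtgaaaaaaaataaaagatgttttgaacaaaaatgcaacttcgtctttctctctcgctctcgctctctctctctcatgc

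No matches in these windows overlapped each other. ACAAAG was present in 7 of the 26 windows of these genes (26.9%) and in 4447 of 27025 windows of the same length over all genes (16.5%), each counted over the whole RefSeq window. CTGGCAC was present in 4 of the 26 windows (15.4%) and in 1120 of all windows (4.14%). The Mobp window held 6 copies of ACAAAG, and 1 of the 27025 windows held that many. The windows with ACAAAG were those of Mobp, Cnp, Opalin, Mag, Gjb1 and Apod, which fell in OPC stroke libraries, and of Klk6, which rose there. Those with CTGGCAC belonged to Cnp, Mag, Hapln2 and Nipal4. The windows of Mal and Mog, which are not shown, held 0 matches to either. A match is a run of letters and not a measured binding site.

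In control libraries the level per exon length, in RPKM (CPM per kilobase of exon), was highest in OPC libraries for 24 of the 32 genes. Mbp, the basic protein that binds the inner membrane faces of compact myelin, averaged 4917 ± 387 RPKM in OPC control libraries, 936 ± 272 RPKM in pericyte, 708 ± 160.1 RPKM in EC, 299 ± 123 RPKM in astrocyte and 10.6 ± 16.6 RPKM in microglia P2 control libraries (SD). Within OPC control libraries the order per length was Mbp, then Cnp at 3519 ± 221 RPKM, then Mag at 1120.4 ± 85.9 RPKM and Mog at 1022 ± 95.8 RPKM, whose difference was close to their SDs. Mal and Mobp followed at nearly the same level, 883 ± 93.5 RPKM and 882 ± 60.0 RPKM. Klk6 and Anln stood last in OPC control libraries, at 2.21 ± 0.582 RPKM and 2.65 ± 0.679 RPKM.

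A few genes had another pattern. Apod, a secreted lipocalin of glia and connective tissue, was the highest of the 32 per length in pericyte control libraries, at 2733 ± 1161 RPKM, and in EC control libraries, at 920.1 ± 253 RPKM, against 94.0 ± 9.21 RPKM in OPC control libraries. Klk6, a secreted serine protease of oligodendrocytes, averaged 148 ± 40.1 RPKM in EC control libraries. Hapln2, a link protein that binds hyaluronan at nodes of Ranvier, averaged 258 ± 175 RPKM in pericyte control libraries and 24.2 ± 11.8 RPKM in OPC control libraries. Car2, the cytosolic carbonic anhydrase of oligodendrocytes, lay closer together, in EC (256 ± 79.2 RPKM), pericyte (243 ± 39.5 RPKM), astrocyte (204 ± 29.5 RPKM) and OPC (174 ± 24.8 RPKM) control libraries.

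**Figure D1:**
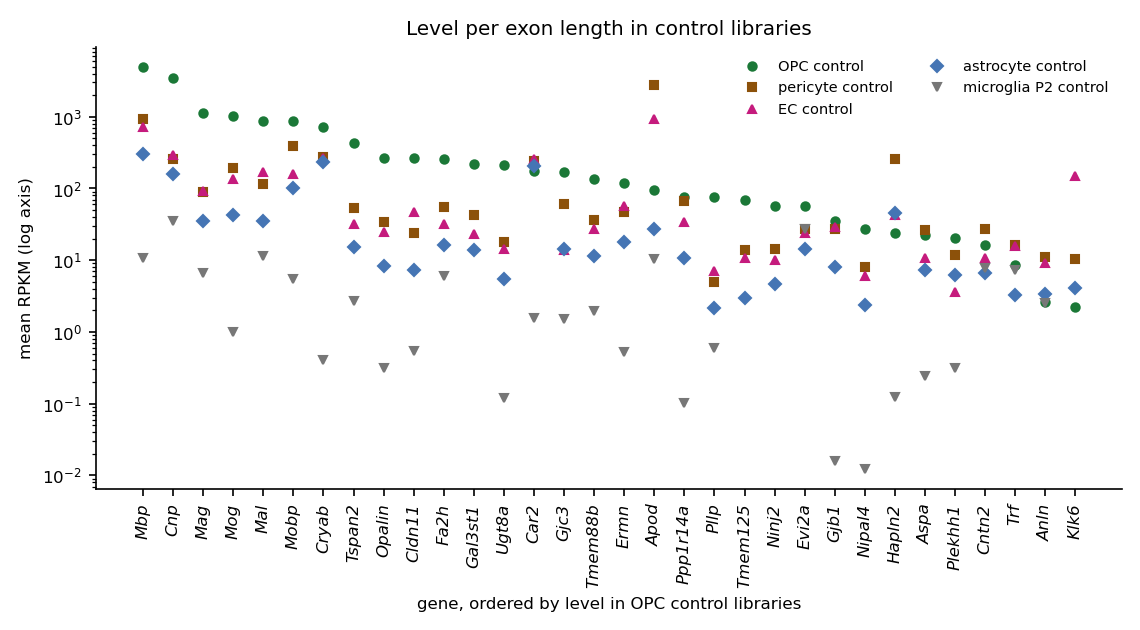
Mean level of each of the 32 genes in the control libraries of the 5 cell types (RPKM, log axis; 1 point per gene and cell type; means of 0 are not drawn), with genes ordered by their level in OPC control libraries. Most genes lie highest in OPC control libraries, while Apod lies highest in pericyte and Klk6 in EC control libraries.

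The 32 genes together made up 4.77% to 6.06% of all counts in OPC stroke libraries and 7.34% to 8.16% in OPC control libraries. Their summed level was 43625, 50098 and 61496 CPM (lowest, median and highest) in OPC stroke libraries, against 74867, 79628 and 85798 CPM in OPC control libraries, with no overlap. Mbp held 51.8% to 55.5% of that sum in OPC stroke and 49.8% to 55.0% in OPC control libraries. In pericyte libraries the sum was 10695, 14246 and 19960.5 CPM in stroke, against 17361, 20994 and 33230.4 CPM in control, and the ranges overlapped. Apod alone held much of the pericyte sum: without it, stroke libraries ranged from 5837 to 13986 CPM and control libraries from 10523 to 21622 CPM, overlapping through pericyte stroke 3, the highest stroke library, and pericyte control 14, the lowest control library. EC stroke libraries had 13237, 17549.8 and 21972 CPM, against 9530.3, 14674 and 18122 CPM in EC control libraries, and astrocyte stroke libraries 4881, 5695 and 7919 CPM, against 3954, 5229 and 8906 CPM in astrocyte control libraries, and both pairs overlapped widely.

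**Figure D2:**
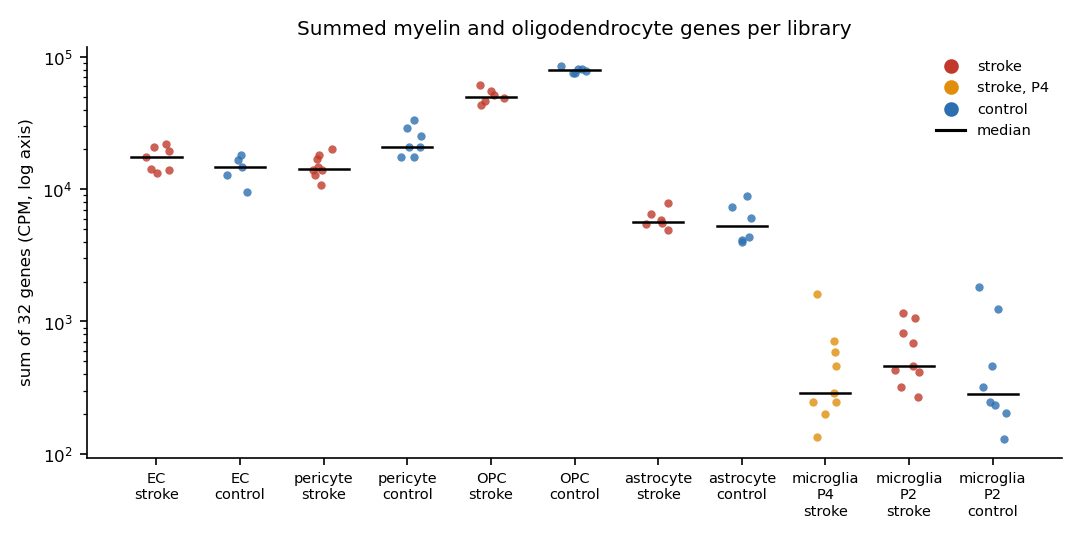
Sum of the 32 genes in every library (CPM, log axis), by cell type and condition; points are libraries and lines are medians. OPC stroke libraries lie below all OPC control libraries, pericyte stroke libraries lie mostly below pericyte control libraries, and the microglia libraries lie far below the rest.

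In OPC libraries the myelin genes fell together in stroke libraries. Of the 32 genes, 29 were called lower and 1 higher in stroke libraries at an adjusted p under 0.05, where 8.77% of the 18167 genes tested were called lower and 11.7% higher. In 21 of the 32 genes all 6 stroke libraries lay below all 6 control libraries, which held for 3.89% of all genes, and in 1 gene they lay above, which held for 7.21% of all genes. The median log2 fold change of the 32 genes was -0.72, and that of all genes -0.01. With library totals alone in place of TMM, 27 were called lower, the median of all genes stood at 0.11, and the share of higher calls among all called genes was 80.6%, against 57.2% with TMM.

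All 5 genes of compact myelin fell in OPC stroke libraries, with log2 fold changes between -1.30 and -0.58 and no overlap of stroke with control for any of them. Mbp had 23064, 27706 and 33691 CPM in OPC stroke libraries, against 38166, 41259 and 47222 CPM in control libraries. Its log2 fold change was -0.58 ± 0.09 (SE; edgeR adjusted p = 0.00032), a level 1.50-fold lower in stroke libraries. Mobp, another small basic protein of compact myelin, had 2858, 3479.6 and 4680.4 CPM in OPC stroke libraries, against 5527, 6048 and 6693 CPM in control libraries, a log2 fold change of -0.75 ± 0.10 (SE; edgeR adjusted p = 8.25e-05). Mal, a raft proteolipid of the vesicles that carry membrane to myelin, fell most of the 32 genes on the log2 scale. It had 742, 1036 and 1098 CPM in OPC stroke libraries, against 2188, 2401 and 2903 CPM in control libraries, so that the highest stroke library stood far below the lowest control library, and its log2 fold change was -1.30 ± 0.10 (SE; edgeR adjusted p = 6.51e-07). Tspan2, a tetraspanin, and Pllp, the proteolipid plasmolipin, had log2 fold changes of -0.76 and -0.58 (edgeR adjusted p = 0.000197 and 0.000118).

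Of the 6 surface and adhesion genes, 5 fell in OPC stroke libraries. Opalin, a sialylated membrane protein found in oligodendrocytes, had 279.6, 333 and 371 CPM in OPC stroke libraries, against 553, 793 and 933 CPM in control libraries, and its log2 fold change was -1.23 ± 0.11 (SE; edgeR adjusted p = 1.72e-06). Mog, which sits on the outermost face of myelin, had 764, 828 and 915 CPM in OPC stroke libraries, against 1448, 1747 and 1899 CPM in control libraries, and its log2 fold change was -1.07 ± 0.07 (SE; edgeR adjusted p = 3.17e-07). Mag, the adhesion protein of the membrane next to the axon, had 2142, 2454 and 3777 CPM in OPC stroke libraries, against 4086, 4506 and 5035 CPM in control libraries, and its log2 fold change was -0.76 ± 0.12 (SE; edgeR adjusted p = 0.000331). Stroke and control libraries of OPC did not overlap for any of these 3 genes. Cntn2, a contactin at the borders of the node, and Ninj2, an adhesion protein, fell by less, with log2 fold changes of -0.68 and -0.62. Hapln2 did not pass, at a log2 fold change of -0.84 with a 95% interval of -1.50 to -0.19 (edgeR adjusted p = 0.0662).

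Among the 5 genes of the cytoskeleton and signalling, 4 fell in OPC stroke libraries. Cnp, the cyclic nucleotide phosphodiesterase that keeps cytoplasmic channels in myelin open, had 7699, 8834 and 10704 CPM in OPC stroke libraries, against 11825, 12603 and 14099 CPM in control libraries, and its log2 fold change was -0.51 ± 0.08 (SE; edgeR adjusted p = 0.000303). Ermn, an actin-binding protein of the late oligodendrocyte, had 172, 204 and 226 CPM in OPC stroke libraries, against 389, 437 and 479 CPM in control libraries, and its log2 fold change was -1.10 ± 0.07 (SE; edgeR adjusted p = 2.9e-07). Ppp1r14a, an inhibitor of myosin phosphatase, had 34.2, 48.4 and 57.1 CPM in OPC stroke libraries, against 82.8, 107 and 125 CPM in control libraries, and its log2 fold change was -1.15 ± 0.12 (SE; edgeR adjusted p = 9.01e-06). No stroke library reached a control library for these 3 genes. Plekhh1 fell with overlap, at -0.69 on the log2 scale, and Anln, the actin- and septin-binding protein anillin, did not pass, at -0.10 with a 95% interval of -0.48 to 0.29. Because the kit does not mark strand, reads of Cnp cannot be told apart from those of Dnajc7 where the 2 genes overlap on opposite strands, and the same holds for Ermn with Galnt5 and Plekhh1 with Pigh.

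The junction genes split by size of change. Gjb1, a connexin of gap junctions, had 26.8, 30.8 and 38.0 CPM in OPC stroke libraries, against 54.9, 59.6 and 63.3 CPM in control libraries, and its log2 fold change was -0.92 ± 0.08 (SE; edgeR adjusted p = 1.72e-06), with no overlap. Cldn11, the tight junction claudin of myelin, fell by less, at -0.67 on the log2 scale (edgeR adjusted p = 0.0025). Gjc3, another glial connexin, had 604, 637 and 662 CPM in OPC stroke libraries, against 661, 742 and 894 CPM in control libraries, the smallest called change of the 32 genes at -0.24 ± 0.07 (SE; edgeR adjusted p = 0.0316). The groups overlapped by a narrow margin. Gjc3 lost its call without OPC control 4 or 9 or stroke 2, 3, 5 or 10, with adjusted p up to 0.0662 and log2 fold changes of -0.27 to -0.18. It also lost its call with library totals alone, at -0.12 (adjusted p = 0.186), and with no filter on low counts, at -0.25 (adjusted p = 0.0814).

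All 5 genes of lipid synthesis and metabolism fell in OPC stroke libraries. Aspa, which splits N-acetylaspartate and so frees acetate, had 43.0, 58.5 and 80.0 CPM in OPC stroke libraries, against 108, 133 and 158 CPM in control libraries, and its log2 fold change was -1.15 ± 0.14 (SE; edgeR adjusted p = 2.63e-05), with no overlap. The enzymes of myelin galactolipids fell by less: Fa2h, the fatty acid hydroxylase, at -0.75, Gal3st1, the sulfotransferase that makes sulfatide, at -0.52, and Ugt8a, the galactosyltransferase that makes galactosylceramide, at -0.49 on the log2 scale (edgeR adjusted p = 2.35e-06, 0.000166 and 0.00476). Car2 stood at -0.70. Of the other membrane genes, all 4 fell: Evi2a had 52.0, 67.9 and 79.2 CPM in OPC stroke libraries, against 116, 132 and 144 CPM in control libraries, and its log2 fold change was -0.96 ± 0.10 (SE; edgeR adjusted p = 8.09e-06), with no overlap. Evi2a lies on the strand opposite Nf1 and overlaps the locus Evi2, as judged on whole gene spans. Reads of these genes cannot be told apart where their exons overlap. Nipal4, Tmem125 and Tmem88b had log2 fold changes of -0.78, -0.78 and -0.70.

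The secreted proteins and the chaperone were the one group with opposite directions. Trf, the iron carrier transferrin, and Cryab, a small heat shock protein, fell without overlap, with log2 fold changes of -0.48 and -0.75 (edgeR adjusted p = 0.00276 and 0.000288). Apod fell by 0.41 on the log2 scale, lost that call without OPC control 6 or 12 or stroke 3, 5 or 10 (log2 fold changes of -0.52 to -0.34 and adjusted p up to 0.0714), and did not pass with library totals alone. Klk6 rose: it had 9.55, 17.4 and 35.3 CPM in OPC stroke libraries, against 2.77, 3.06 and 5.12 CPM in control libraries, with no overlap. Its log2 fold change was 2.49 ± 0.27 (SE; edgeR adjusted p = 1.1e-05), a level 5.62-fold higher in stroke libraries, from 641 to 2580 reads per stroke library and 166 to 306 per control library.

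Other cell types' markers moved in the same OPC libraries. Of 10 microglia markers, 10 were called higher, and their sum was 634 to 1110.0 CPM in OPC stroke and 82.1 to 168 CPM in OPC control libraries. Of 10 astrocyte markers, 7 were called higher, with sums of 1391 to 4034 CPM in stroke and 552 to 829.8 CPM in control libraries. Of 10 neuron markers, 6 were called lower, with sums of 287 to 508 CPM in stroke and 483 to 1168 CPM in control libraries. No marker of these 3 lists was at 0 in either group, and their part in the fall of the myelin genes was not tested. The OPC marker list had 1 of 10 genes called higher and 0 lower by edgeR, with 0 of the 10 lower at an unadjusted p under 0.05 or by DESeq2. Markers of monocytes and macrophages summed to 3.87 to 6.40 CPM in OPC stroke and 0.0740 to 1.12 CPM in OPC control libraries, and those of Schwann cells, the myelin-forming cells of peripheral nerve, to 15.9 to 20.1 CPM in OPC stroke and 12.8 to 18.9 CPM in OPC control libraries.

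**Figure D3:**
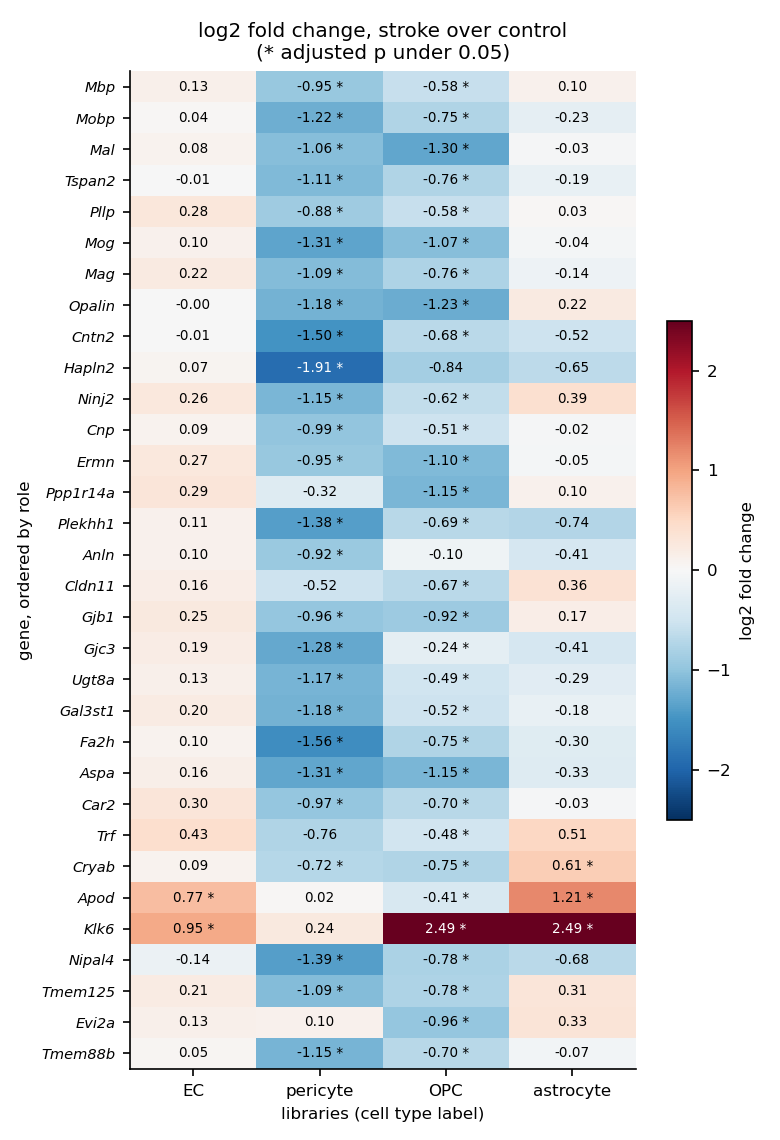
Log2 fold change of each of the 32 genes, stroke over control, in EC, pericyte, OPC and astrocyte libraries (rows, genes ordered by role; columns, cell types; colour, log2 fold change; asterisk, edgeR adjusted p under 0.05). The pericyte and OPC columns are almost wholly below 0, the EC and astrocyte columns lie mostly near 0, and Klk6 reaches 2.49 in OPC and astrocyte libraries.

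In pericyte libraries 26 of the 32 genes were called lower in stroke and 0 higher, by edgeR, where 12.8% of 21694 genes were called lower and 15.9% higher. None of the 32 was higher at an unadjusted p under 0.05 or by DESeq2, which called 27 of the 32 and 4020 of all 21694 genes lower. The median log2 fold change of the 32 genes was -1.09 and that of all genes -0.08, but the libraries of a group spread more than in OPC, so that in only 4 of the 32 genes (Mog, Ugt8a, Nipal4 and Tspan2) did all stroke libraries lie below all control libraries, a pattern held by 0.996% of all genes. In 0 genes did they lie above, which held for 4.47% of all genes. With library totals alone, 29 of the 32 genes were called lower, the median of all genes was -0.28, and 38.0% of all called genes were higher, against 55.2% with TMM.

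In pericyte libraries all 6 surface and adhesion genes were called lower, and their median log2 fold change of -1.25 was the lowest of the 7 role groups. Hapln2 had 66.8, 150.4 and 294 CPM in pericyte stroke libraries, against 231, 483 and 1203 CPM in control libraries, and its log2 fold change of -1.91 ± 0.44 (SE), at an edgeR adjusted p of 0.00478, was the largest fall of the 32 genes. Stroke 3 and 16 overlapped the lowest controls. Cntn2 had 28.4, 83.5 and 187 CPM in pericyte stroke libraries, against 85.6, 145 and 506 CPM in control libraries, and its log2 fold change was -1.50 ± 0.48 (SE; edgeR adjusted p = 0.0266). That call was lost without pericyte control 11 or without control 15, the highest Cntn2 libraries, with log2 fold changes of -1.23 and -1.26 (edgeR adjusted p = 0.0704 and 0.0672). Mog had 75.8, 129 and 213 CPM in pericyte stroke libraries, against 235, 316 and 425 CPM in control libraries with no overlap, and its log2 fold change was -1.31 ± 0.21 (SE; edgeR adjusted p = 0.000471). Opalin had 28.6, 39.2 and 72.6 CPM in pericyte stroke libraries, against 69.4, 104 and 132 CPM in control libraries, so that 1 stroke library, number 3, passed the lowest control, and its log2 fold change was -1.18 ± 0.20 (SE; edgeR adjusted p = 0.000658). Mag had 111, 152 and 273 CPM in pericyte stroke libraries, against 257, 384 and 474 CPM in control libraries, and its log2 fold change was -1.09 ± 0.20 (SE; edgeR adjusted p = 0.0012). Stroke 3 was again the one stroke library above the lowest controls.

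The 5 compact myelin genes fell in pericyte libraries, with log2 fold changes of -1.22 to -0.88. Mbp had 2773, 3560.3 and 7590.1 CPM in pericyte stroke libraries, against 4434, 7099 and 11029 CPM in control libraries, and its log2 fold change was -0.95 ± 0.25 (SE; edgeR adjusted p = 0.00991). Mobp had 806, 1120.3 and 2126 CPM in pericyte stroke libraries, against 1308, 2509 and 3926 CPM in control libraries, and its log2 fold change was -1.22 ± 0.24 (SE; edgeR adjusted p = 0.00203). For both genes pericyte stroke 3 was the highest stroke library and the only one above the lowest controls by a wide margin. Cnp had 343, 409 and 794 CPM in pericyte stroke libraries, against 664, 879 and 1325 CPM in control libraries, and its log2 fold change was -0.99 ± 0.21 (SE; edgeR adjusted p = 0.00288). Stroke 3 alone overlapped the controls for Cnp.

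Lipid and junction genes fell in pericyte libraries as well. Fa2h had 26.1, 50.6 and 89.3 CPM in pericyte stroke libraries, against 87.3, 165 and 256 CPM in control libraries, overlapping at 1 pair of libraries, and its log2 fold change was -1.56 ± 0.29 (SE; edgeR adjusted p = 0.00114). Aspa had 28.1, 51.4 and 107 CPM in pericyte stroke libraries, against 96.1, 127 and 247 CPM in control libraries, and its log2 fold change was -1.31 ± 0.31 (SE; edgeR adjusted p = 0.00554). Gjc3 had 58.5, 99.4 and 195 CPM in pericyte stroke libraries, against 175, 245 and 397 CPM in control libraries, and its log2 fold change was -1.28 ± 0.25 (SE; edgeR adjusted p = 0.00164). Stroke 3 overlapped the lowest controls for all 3 genes, and stroke 16 for Aspa. All 5 lipid genes and 2 of 3 junction genes were called. Of the remaining named genes, Nipal4, a membrane protein that resembles magnesium transporters, had 5.07, 9.24 and 17.5 CPM in pericyte stroke libraries, against 18.2, 29.5 and 38.2 CPM in control libraries with no overlap, and its log2 fold change was -1.39 ± 0.26 (SE; edgeR adjusted p = 0.00126). Plekhh1 had 14.8, 25.2 and 67.1 CPM in pericyte stroke libraries, against 29.0, 77.4 and 149 CPM in control libraries, and its log2 fold change was -1.38 ± 0.40 (SE; edgeR adjusted p = 0.0182). For Plekhh1 4 of the 8 stroke libraries lay within the range of the controls.

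The control libraries of pericytes did not rank alike for all of these genes. Controls 11 and 15 had 1178 and 1203 CPM of Hapln2, 506 and 479 CPM of Cntn2, and 149 and 131 CPM of Plekhh1, the highest of the group in each case. Controls 5 and 8 had the most Mbp, 11029 and 10368 CPM, but 483 and 369.7 CPM of Hapln2. With the counts of controls 11 and 15 summed to 1 library, 25 of the 32 genes were called lower.

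Of the 32 genes, 6 did not pass in pericyte libraries, and 3 of them are secreted. Apod had 4858, 6910.0 and 9516 CPM in pericyte stroke libraries, against 3321, 6936 and 11608 CPM in control libraries, the groups overlapping throughout, and its log2 fold change was 0.02 with a 95% interval of -0.54 to 0.58. Klk6 was at 0.24 (-0.43 to 0.90), Trf at -0.76 (-1.45 to -0.06), Ppp1r14a at -0.32 (-0.70 to 0.07), Cldn11 at -0.52 (-1.06 to 0.03) and Evi2a at 0.10 (-0.30 to 0.50) on the log2 scale. Cryab passed, at -0.72 ± 0.23 (SE; edgeR adjusted p = 0.0299), but lost the call without pericyte control 5, 8 or 9 or stroke 13 or 16 (log2 fold changes of -0.86 to -0.62 and adjusted p up to 0.0645 over the fits that leave out a library). Cryab overlaps Hspb2 on the opposite strand, and reads of the 2 genes cannot be told apart where their exons overlap.

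Microglia markers rose in the same pericyte libraries, with 10 of 10 called higher and sums of 3150.4 to 6756 CPM in stroke and 382 to 2708 CPM in control libraries. Of 10 neuron markers, 7 were called lower, with sums of 607 to 1966 CPM in stroke and 1255 to 3261 CPM in control libraries. No marker of either list was at 0 in a group, and their part in the fall of the myelin genes was not tested. The pericyte markers summed to the ranges given above, with 2 of 10 called higher.

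**Figure D4:**
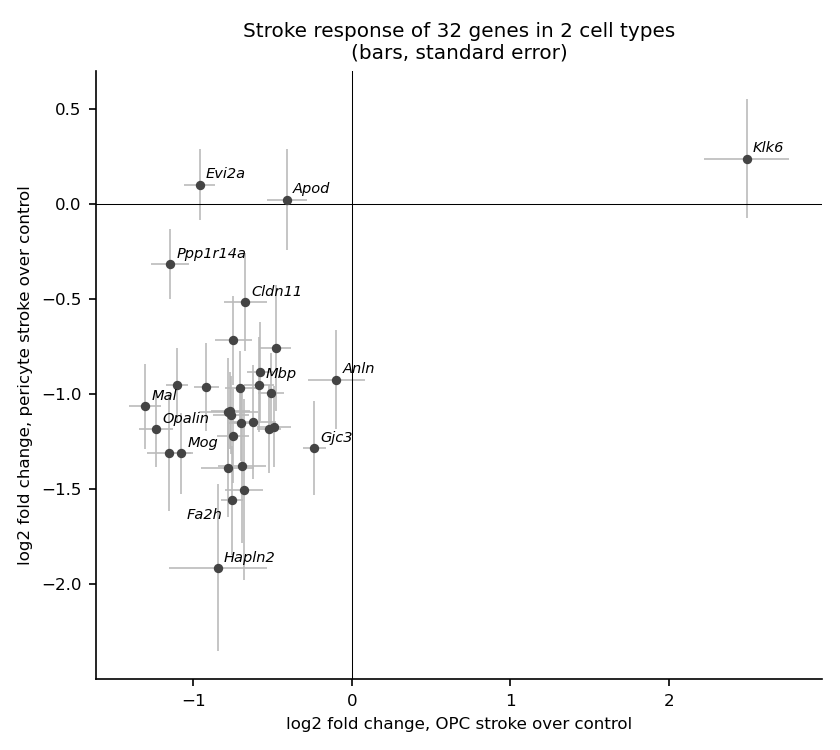
Log2 fold change, stroke over control, of the 32 genes in OPC libraries (x axis) and in pericyte libraries (y axis); points are genes and bars are standard errors. Most genes lie below 0 on both axes; Klk6 stands apart at 2.49 in OPC, and Evi2a and Ppp1r14a lie lower in OPC than in pericyte libraries.

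In EC libraries 2 of the 32 genes were called higher in stroke and 0 lower, by edgeR, where 3.57% of 20995 genes were called higher and 2.67% lower. None was lower at an unadjusted p under 0.05 or by DESeq2. Klk6 had 289, 408 and 569 CPM in EC stroke libraries, against 266, 283, 185, 137 and 245 CPM in the 5 EC control libraries, every stroke library lying above every control library (as for 1.85% of all genes), and its log2 fold change was 0.95 ± 0.20 (SE; edgeR adjusted p = 0.0191). Apod had 2945, 4393 and 4754 CPM in EC stroke libraries, against 3271, 2594, 1943, 1564 and 2483 CPM in the 5 EC control libraries, with overlap, and its log2 fold change was 0.77 ± 0.17 (SE; edgeR adjusted p = 0.024). In 0 of the 32 genes did all stroke libraries lie below all controls, against 2% of all genes. Without EC control 7 or without EC control 9 both calls were lost (edgeR adjusted p = 0.0657 and 0.0539 for Klk6, 0.0823 and 0.0673 for Apod), and that of Apod also without stroke 8 (edgeR adjusted p = 0.0506). The log2 fold changes kept within 0.82 to 1.05 for Klk6 and 0.65 to 0.91 for Apod over the fits that leave out a library.

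The EC libraries numbered up to 6 held 123424129 to 142944063 counts and those numbered above 6 held 57569368 to 80697263. Within the first class (3 stroke and 2 control libraries) Klk6 had a log2 fold change of 0.45 and Apod of 0.33 (edgeR adjusted p = 0.475 and 0.803). Within the second (4 stroke and 3 control libraries) Klk6 had 1.33 and Apod 1.10 (edgeR adjusted p = 0.0691 and 0.0651). With the class as a covariate both genes passed (edgeR adjusted p = 0.0273 for Klk6 and 0.0306 for Apod). With library totals alone the share of higher calls among all genes was 78.7%, against 57.2% with TMM, and both genes remained called.

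The genes of the myelin sheath were not called in EC libraries. Mbp had 4429.7, 6476 and 9788 CPM in EC stroke libraries, against 6586, 5926, 5629, 4071 and 7773 CPM in the 5 EC control libraries, and its log2 fold change was 0.13 with a 95% interval of -0.30 to 0.56. Mog had 189.6, 236 and 304 CPM in EC stroke libraries, against 300.1, 231, 208, 145 and 283 CPM in the 5 EC control libraries, at 0.10 (-0.26 to 0.45). Mag had 292, 447 and 639 CPM in EC stroke libraries, against 409, 389, 334, 227 and 504 CPM in the 5 EC control libraries, at 0.22 (-0.22 to 0.65). Groups overlapped for all 3 genes, and the log2 fold changes of Mobp and Cnp were 0.04 (-0.38 to 0.45) and 0.09 (-0.35 to 0.53). Outside Klk6 and Apod the widest shift was that of Trf, with a log2 fold change of 0.43 (edgeR adjusted p = 0.142). In these libraries 6 of 10 microglia markers were called higher and 6 of 10 neuron markers lower, with microglia sums of 249 to 505 CPM in stroke and 143 to 228 CPM in control libraries and neuron sums of 4696 to 6255 CPM in stroke and 6924 to 9595 CPM in control libraries. Of 10 endothelial markers 2 were called higher and 0 lower by edgeR, 5 were called higher by DESeq2 and 7 were higher at an unadjusted p under 0.05, with sums of 2857 to 4732 CPM in stroke and 2009 to 3402 CPM in control libraries. Of all 20995 genes tested, DESeq2 called 1503 higher, and 4814 had an unadjusted p under 0.05 in either direction. No marker of these lists was at 0, and their part in the rise of Klk6 and Apod was not tested.

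In astrocyte libraries 3 of the 32 genes were called higher in stroke, all of them secreted proteins or the chaperone, and 0 lower, by edgeR, where 5.63% of 18796 genes were called higher and 4.68% lower. None was lower at an unadjusted p under 0.05 or by DESeq2. Klk6 had 24.8, 34.7 and 49.4 CPM in astrocyte stroke libraries, against 3.19, 4.65 and 11.7 CPM in control libraries, with no overlap, and its log2 fold change was 2.49 ± 0.32 (SE; edgeR adjusted p = 0.000188). Apod had 121, 144 and 263 CPM in astrocyte stroke libraries, against 46.5, 70.4 and 93.5 CPM in control libraries, with no overlap, and its log2 fold change was 1.21 ± 0.21 (SE; edgeR adjusted p = 0.00193). Cryab had 380.1, 501 and 769.9 CPM in astrocyte stroke libraries, against 267, 340.0 and 454 CPM in control libraries, with overlap, and its log2 fold change was 0.61 ± 0.17 (SE; edgeR adjusted p = 0.0361). The Cryab call was lost without astrocyte control 2, 5, 6 or 10 or stroke 3, 4, 7 or 12 (log2 fold changes of 0.49 to 0.74 and adjusted p up to 0.0856 over the fits that leave out a library) and without the filter on low counts, while Klk6 and Apod passed in every such fit. All stroke libraries lay above all controls for 2 of the 32 genes (against 4.18% of all genes) and below them for 0 (against 3.2%).

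In astrocyte libraries the genes of the myelin sheath showed no called change. Mbp had 2106, 2512 and 3834 CPM in astrocyte stroke libraries, against 1557, 2274 and 4137 CPM in control libraries, and its log2 fold change was 0.10 with a 95% interval of -0.43 to 0.62. Mobp had 472, 559 and 813 CPM in astrocyte stroke libraries, against 393, 589.9 and 1254 CPM in control libraries, at -0.23 (-0.81 to 0.35). Mog, Mag and Cnp had log2 fold changes of -0.04 (-0.65 to 0.56), -0.14 (-0.76 to 0.49) and -0.02 (-0.30 to 0.25). Stroke and control libraries overlapped for all 5 genes. The astrocyte controls were split for Mbp: controls 1, 2 and 5 had 1557, 1658 and 1815 CPM, and controls 6, 9 and 10 had 3276, 2733 and 4137 CPM. The former held 60642672 to 64557642 counts and the latter 43367636 to 56491464. The part of depth in this split was not tested. Microglia markers were called higher for 10 of 10 genes, with sums of 1791 to 3166 CPM in stroke and 586 to 814 CPM in control libraries, and 7 of 10 neuron markers were called lower, with sums of 519 to 1777 CPM in stroke and 2026 to 2711 CPM in control libraries. None of these markers was at 0, and their part in the rise of Klk6, Apod and Cryab was not tested.

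**Figure D5:**
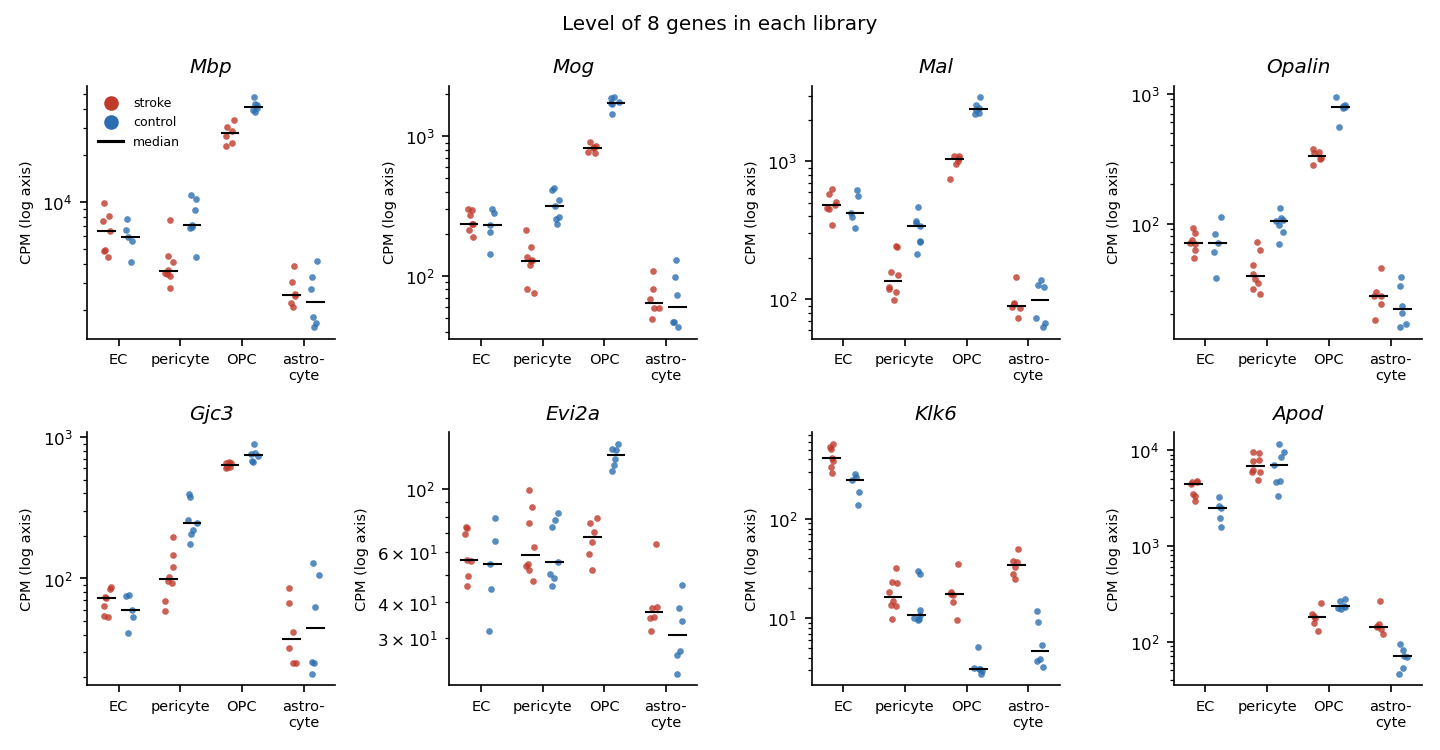
Level of 8 genes in each EC, pericyte, OPC and astrocyte library (CPM, log axes that differ between panels); points are libraries, stroke to the left of control, and lines are medians. Mbp, Mog, Mal and Opalin lie lower in OPC and pericyte stroke libraries, Evi2a lies lower in OPC stroke libraries (log2 fold change -0.96) but not in pericyte stroke libraries (0.10), and Klk6 lies higher in EC, OPC and astrocyte stroke libraries.

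The stroke response differed between cell types for most of these genes. In 1 model over the 51 EC, pericyte, OPC and astrocyte libraries, a cell type by condition interaction was called for 27 of the 32 genes, where 14.3% of 25257 genes were called. The smallest p-values were those of Klk6, Opalin, Car2, Mog, Mal, Apod, Pllp, Ermn, Evi2a and Cryab, with edgeR adjusted p from 3.16e-05 for Klk6 to 0.0021 for Cryab. Nipal4, Hapln2, Cntn2, Anln and Plekhh1 did not pass. With P2 microglia added to the model, 13 of the 32 genes were called. The share of all genes called in that fit is not given here, so this count cannot be set against it.

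Pericyte against EC gave the widest contrast, with 25 of the 32 genes responding lower in pericyte, where 6.18% of all genes did and 7.1% responded higher. OPC responded lower than EC for 8 genes (Ppp1r14a, Mal, Ermn, Opalin, Apod, Mog, Evi2a and Car2; 0.416% of all genes) and higher for Klk6 (1.94% of all genes). The difference for Mal, OPC minus EC, was -1.33 (95% interval -1.91 to -0.76; edgeR adjusted p = 0.003). Astrocyte against EC gave 0 called differences by edgeR among the 32 genes, with 12 over all genes (0.0317% higher and 0.0158% lower), and 1 of the 32 had an unadjusted p under 0.05, Klk6, at 1.57 (95% interval 0.71 to 2.42; edgeR adjusted p = 0.194). Astrocyte responded higher than pericyte for 22 genes (1.99% of all genes, with 4.43% lower) and higher than OPC for 6 (Apod, Opalin, Cryab, Evi2a, Mal and Ppp1r14a; 0.309% of all genes).

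OPC and pericyte, the cell types in which most of these genes fell, differed for 3 of the 32. Klk6 responded higher in OPC than in pericyte by 2.30 (95% interval 1.48 to 3.12; edgeR adjusted p = 0.000143). Gjc3 fell less in OPC than in pericyte, by 1.13 (95% interval 0.36 to 1.91; edgeR adjusted p = 0.0477). Evi2a went the other way, at -0.99 (95% interval -1.49 to -0.50; edgeR adjusted p = 0.00547). Over all genes, 5.91% responded higher and 5.17% lower in OPC than in pericyte. The 2 genes higher and 1 lower among the 32 were thus near the shares over all genes. For Mbp the difference was 0.44 (95% interval -0.13 to 1.00; edgeR adjusted p = 0.318), and the fit does not show that it fell alike in both.

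In microglia libraries the myelin genes were low, and 16 of the 32 passed the filter on low counts. The sum of the 32 genes was 134, 288 and 1627 CPM in P4 stroke libraries, 269.9, 462 and 1166 CPM in P2 stroke and 129, 284 and 1821 CPM in P2 control, with wide overlap. Klk6 had 0 counts in all 26 libraries. Of the 16 tested, 0 were called between P2 stroke and P2 control by edgeR, where 0.00756% of 13225 genes were called. At an unadjusted p under 0.05 stood 2 of the 16 (Cntn2 and Mog), and 1339 of the 13225 genes. Between P4 stroke and P2 stroke 0 were called, with the same share over all genes. There 1 of the 16 (Cnp) had an unadjusted p under 0.05, as did 1526 of the 13225 genes. DESeq2 called 0 of the 32 genes in either comparison.

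In microglia a few libraries stood far above the median of their group. Mog had 0, 3.40 and 144 CPM in P2 stroke libraries, against 0, 0.125 and 10.4 CPM in P2 control libraries, with an edgeR adjusted p of 0.478. Cntn2 had 0.0924, 2.36 and 21.8 CPM in P2 stroke libraries, against 0.160, 1.97 and 475 CPM in P2 control libraries, with an edgeR adjusted p of 0.354. Cnp had 0.936, 13.5 and 57.5 CPM in P4 stroke libraries, against 1.52, 101 and 186 CPM in P2 stroke libraries, with an edgeR adjusted p of 0.272. Median Cnp was lower in P4 than in P2 stroke libraries, yet their ranges overlapped. Mbp had 36.6, 90.6 and 299 CPM in P4 stroke, 37.5, 136 and 818 CPM in P2 stroke and 19.6, 42.9 and 436 CPM in P2 control libraries. Its edgeR adjusted p was 0.534 between P2 stroke and control and 0.619 between P4 and P2 stroke. For Mag and Mobp it was 0.512 and 0.72 between P2 stroke and control and 0.853 and 0.669 between P4 and P2 stroke, and for Mal 0.588 between P4 and P2 stroke. Evi2a had a higher floor, at 48.3, 110.0 and 712 CPM in P4 stroke, 56.4, 113 and 219 CPM in P2 stroke and 16.9, 55.3 and 136 CPM in P2 control libraries, and it was detected in every library.

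Genes of the same lineage outside the 32 were followed as 3 lists. Of 20 further myelin and oligodendrocyte genes, 14 fell and 1 rose in OPC stroke libraries, where 8.77% of all genes fell and 11.7% rose. The 20 genes had a median log2 fold change of -0.65. Among those that fell were Sept4, a septin (-0.76), and Cers2, a ceramide synthase (-0.81), and the gene that rose was Plxnb3, a semaphorin receptor (0.34). In pericyte libraries 6 of the 20 fell and 1 rose: Gpr37, an orphan receptor of oligodendrocytes, and Tppp, which bundles microtubules, had -1.20 and -1.09, while Adamts4, a secreted protease, rose by 1.50 on the log2 scale (edgeR adjusted p = 0.00159, 0.00396 and 0.000264). Over all 21694 genes of the pericyte libraries, edgeR called 12.8% lower and 15.9% higher. In these pericyte libraries 13 of the 20 were lower and 1 was higher at an unadjusted p under 0.05, where 8906 of the 21694 genes had such a p in either direction. DESeq2 called 12 of the 20 lower and 1 higher, against 4020 lower and 3902 higher of the 21694 genes. In EC and astrocyte libraries 0 of the 20 were called by edgeR or DESeq2. At an unadjusted p under 0.05 stood 0 of the 20 in EC and 2 in astrocyte libraries, where 4265 of 18796 astrocyte genes had such a p. Tppp, with the smallest p in both, had -0.36 in EC and -0.69 in astrocyte libraries.

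Of 10 transcription factors of the lineage, 2 fell in OPC libraries, where 8.77% of all genes fell. In pericyte libraries 7 fell, where 12.8% of all genes did, and the difference between the cell types was not tested. Those of OPC were Nkx6-2, a homeobox protein, at -0.77, and Olig1, a basic helix-loop-helix protein, at -0.30, while Myt1, a zinc finger protein, rose by 0.40 (edgeR adjusted p = 1.65e-05, 0.00958 and 0.0408). Sox10 and Myrf, which drive myelin genes, had log2 fold changes of -0.02 (-0.18 to 0.15) and 0.05 (-0.21 to 0.31) there. In pericyte libraries the smallest p-values were those of Sox8 at -1.18, Sox10 at -1.05 and Myrf at -1.19 (edgeR adjusted p = 0.000731, 0.00263 and 0.00423). Of the 10, Tcf7l2 was called higher in EC libraries (0.61) and Sox8 lower in astrocyte libraries (-0.55). Over all genes, 3.57% were called higher in EC and 4.68% lower in astrocyte libraries.

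Of 10 genes of the differentiating oligodendrocyte, 2 were called higher in OPC stroke libraries, where 11.7% of all genes were. These were Tnr, an extracellular matrix protein, at 0.38, and Itpr2, a calcium channel, at 0.54. Of the 10, 0 were lower by edgeR, by DESeq2 or at an unadjusted p under 0.05. In pericyte libraries 5 of the 10 fell, where 12.8% of all genes did. Among the 5 were Bcas1, Gpr17 and Enpp6, which mark cells on the way to myelination, at -1.09, -0.95 and -0.97. There edgeR called 0 of the 10 higher, while Rras2, at 0.71 (edgeR adjusted p = 0.064), was higher by DESeq2 and at an unadjusted p under 0.05. Itpr2 and Bmp4, a growth factor, were called higher in EC libraries (0.77 and 1.14), and Rras2, a small GTPase, in astrocyte libraries (0.48). Over all genes, 3.57% were called higher in EC and 5.63% in astrocyte libraries. In microglia libraries edgeR called 0 genes of the 3 lists. At an unadjusted p under 0.05 stood 2 genes between P2 stroke and P2 control and 6 between P4 stroke and P2 stroke, and DESeq2 called 0 and 1. Of all 13225 genes tested, 1339 and 1526 stood at such a p, and DESeq2 called 158 and 145. Between P2 stroke and P2 control the smallest p of the differentiating genes was that of Cnksr3 and of the transcription factors that of Myrf (edgeR adjusted p = 0.604 and 0.762). Between P4 stroke and P2 stroke the smallest p of each list was that of Carns1, Fyn and Myrf (edgeR adjusted p = 0.119, 0.215 and 0.841).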

How the data were processed

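Libraries from the 5 labelled cell types were prepared with the NucleoSpin RNA XS and SMART-Seq v4 Ultra Low Input kits, per the labels' protocols. These kits keep no strand and add no molecular identifiers. The submitters' processing notes name bcl2fastq 2.20, STAR, HTSeq and GRCm38. Library names of EC, pericyte, OPC and astrocyte begin with hisat and those of microglia do not, so which aligner made each set of counts was left unresolved. No source used here says whether HTSeq counted by strand. The authors deposited 1 table of raw counts per cell type. Genes without a symbol (233) held at most 0.0545% of a library's counts.

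The counts were tested per table with edgeR 4.0.16 in R 4.3.3 (TMM, filterByExpr, quasi-likelihood F test, Benjamini-Hochberg over all tested genes, threshold 0.05). SEs are the log2 fold change over the square root of F. The 3 microglia groups shared 1 fit, and the interaction was fitted over 51 libraries. RPKM divides CPM by exon length (GENCODE M21). The test was also run on simulated counts with larger changes than those of most genes reported here, so that run does not bear on the smaller ones. Alternatives were other scalings, no filter, DESeq2 1.42.0, left-out libraries and, in EC, library classes.

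The 32 genes, the 3 lists of related genes and the 8 lists of cell type markers were chosen with earlier results of these data known. Mbp, Mog, Mag, Mobp and Cnp are named in each comparison, with all called genes (where more than 12, the 10 largest changes) or else the 3 smallest p. Of each list of related genes, up to 3 called genes or the smallest p are named, and of the interaction the 10 smallest p. Other genes were named after their values were seen, and 1 gene of these lists is not reported here.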

Additional observations from a re-analysis of the deposited data

Results flagged for a closer look

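In 6 of 67 groups of 4 to 10 libraries, 1 library stood far from the others, where chance alone gives about 1 in 20 separate groups. The groups reuse the same libraries across genes, so that rate is only a rough guide here. Pericyte stroke 3 was the highest of its group for Mbp, at 7590 CPM, and for Mobp, at 2126 CPM. OPC stroke 2 was the highest stroke library for Klk6, at 35.3 CPM, and OPC control 6 the highest control library, at 5.12 CPM. Astrocyte stroke 12 was the highest of its group for Apod, at 263 CPM. Microglia P4 stroke 19 had the highest sum of the 32 genes in its group, at 1627 CPM.

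The stroke response differed between EC, pericyte, OPC and astrocyte libraries by the edgeR interaction test for 27 genes, given here with the adjusted p. The 10 smallest were those of Klk6 (3.16e-05), Opalin (6.05e-05), Car2 (9.84e-05), Mog (0.00011), Mal (0.000198), Apod (0.00046), Pllp (0.00122), Ermn (0.00123), Evi2a (0.00169) and Cryab (0.0021). Below 0.005 stood also Tmem88b (0.00215), Tspan2 (0.00239), Gal3st1 (0.00264), Ppp1r14a (0.00276), Ninj2 (0.0028), Gjb1 (0.00281), Fa2h (0.00322), Cnp (0.00342), Mag (0.00404) and Tmem125 (0.00408). The remaining genes were Mobp (0.00669), Mbp (0.00692), Aspa (0.0121), Ugt8a (0.0129), Trf (0.0161), Gjc3 (0.0227) and Cldn11 (0.0252).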

How the results depend on the processing

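The counts of the 32 genes called in OPC, pericyte, EC and astrocyte libraries stayed within 1.5 times of the reported ones under RLE size factors, library totals alone, scaling without the 32 genes, no filter on low counts and DESeq2, and the fold change of every gene called in those libraries kept its direction. Left-out libraries gave 25 to 27 genes called lower in pericyte, 27 to 30 in OPC and 2 to 3 higher in astrocyte libraries. For the interaction, left-out EC control libraries gave 27 to 28 genes. Adding P2 microglia gave 13, without a share over all genes to set beside it. In EC libraries, left-out libraries gave 0 to 2 genes, and 138 to 1493 over all genes: without control 7, 0 and 138; without control 9, 0 and 195; without stroke 8, 1 and 594; without stroke 10, 2 and 748. All EC genes called came to 862 with no filter, 2740 by DESeq2, and 0 in either class of library numbers alone (a split chosen after seeing the data), where 0 of the 32 were called. In microglia, no filter gave 2 genes over all between P2 stroke and control and 52 between P4 and P2 stroke, of which 1, Fa2h, lower in P4, is a myelin gene; DESeq2 gave 158 and 145, and left-out libraries 0 to 15 and 1 to 3.

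Some uncalled values changed sign. EC libraries numbered up to 6 gave log2 fold changes of -0.22 for Mbp, -0.23 for Mog, -0.064 for Mag, -0.31 for Mobp and -0.23 for Cnp, and left-out EC libraries -0.0036 to 0.24 for Mbp, -0.033 to 0.20 for Mog, -0.12 to 0.12 for Mobp and -0.042 to 0.22 for Cnp. In astrocytes, Mog stood at 0.0087 and Cnp at 0.013 with no filter, and Cnp at 0.00082 with RLE and 0.00082 by DESeq2; left-out libraries gave -0.17 to 0.20 for Mog, -0.25 to 0.084 for Mag, -0.32 to 0.016 for Mobp and -0.046 to 0.090 for Cnp. Cnp between P2 microglia stroke and control ran from -0.77 to 1.14. The causes were not tested. No paired analysis was possible because stroke and control libraries share no replicate number within a cell type.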
